A study of Danio rerio with 30 samples.

Results

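Zinc finger proteins of the C2H2 type carry repeated short modules, each folded around a zinc ion, and most of them bind DNA and regulate transcription, while some bind RNA or act on ribosomes. In zebrafish a gene with a clear human counterpart takes the human symbol, and a large further group of znf genes, many of them in tandem arrays, was numbered in the fish on its own. In the early embryo the genome is at first nearly silent, development runs on mRNA laid down by the mother, and these maternal transcripts are cleared while the zygotic genome is switched on. Here the 339 genes named znf followed by a number, out of 35117 genes listed, were followed through this transition.

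The libraries came from zebrafish early embryos kept at 28 degrees Celsius, of a strain not given in the sources used here, with 25 embryos per set. Uninjected wild-type embryos were sampled every hour from 0 to 8 h post-fertilization (hpf), giving 9 libraries by ribosomal RNA depletion (Ribo-Zero, which keeps RNA whatever its tail) and 9 by poly(A) capture (which favours RNA with a long tail). Embryos injected with alpha-amanitin at the single cell stage (200 ng/ul, an inhibitor of RNA polymerase II and, at higher dose, III) gave 12 poly(A) libraries from 2 to 7.5 hpf at intervals of 30 minutes. The growth notes mention a biological replicate of each set, but 1 library per condition is listed here, and the sources do not say whether it pools replicates. Each condition had 1 library, so every test below takes its error from the scatter of libraries around a line in hours, and true curvature and library error cannot be told apart. An injection control was not analysed here, so injection and drug cannot be told apart either.

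Levels are in TPM, a length-corrected share of the transcripts in each library, and a higher TPM can reflect a loss of other RNA. Reads per library were not given, so depth is unknown and no counting interval can be had. Between 11919 and 16194 genes, and between 116 and 319 of the members, reached 1 TPM in a library. The files give 301 distinct names for the 339 members; 71 rows share 33 names, and for these the Ensembl identifier is added. Rows with similar sequence can exchange reads in the counting, so values of single rows in such groups are uncertain. For 20 of the 33 names the rows fell into more than 1 of the classes below.

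A member was called maternal where its mean Ribo-Zero TPM at 0 and 1 hpf was at least 5, and zygotic where the mean at 0 to 2 hpf was under 1 and the mean at 6 to 8 hpf was at least 5. Members under 1 early and from 1 to under 5 late were called late low, those under 1 in all 9 Ribo-Zero libraries silent, and the rest other. This gave 146 maternal, 53 zygotic, 43 late low, 11 silent and 86 other members. At the maternal limit, znf1021 (ENSDARG00000088861) at 5.00 and znf1075 at 5.03 TPM lay just inside, and znf1121 at 4.91 and znf1083 at 4.88 just outside. At the late limit for zygotic members znf1068 (5.27) and znf1055 (5.29) lay inside and znf1069 (4.90) and znf1102 (ENSDARG00000103405, 4.82) outside, and at the early limit znf1028 (ENSDARG00000103947, 0.99) lay inside and znf1000 (1.01) outside.

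The numbers in the names fell into 2 separate runs, from 16 to 865 (102 members, the low-numbered genes, largely named after human genes) and from 970 to 1184 (237 members, the high-numbered genes). This division was made after the levels were known, but it used the names alone. The runs differed in class. Of the low-numbered genes 74.5% were maternal and 1.0% (znf750 alone) zygotic, whereas of the high-numbered genes 29.5% were maternal, 21.9% zygotic, 16.9% late low and 31.2% other. Over all genes these shares were 31.0%, 3.6%, 5.0% and 13.7%, and 46.8% were silent, against 9.8% of the low-numbered and 0.4% of the high-numbered genes.

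**Figure D1:**
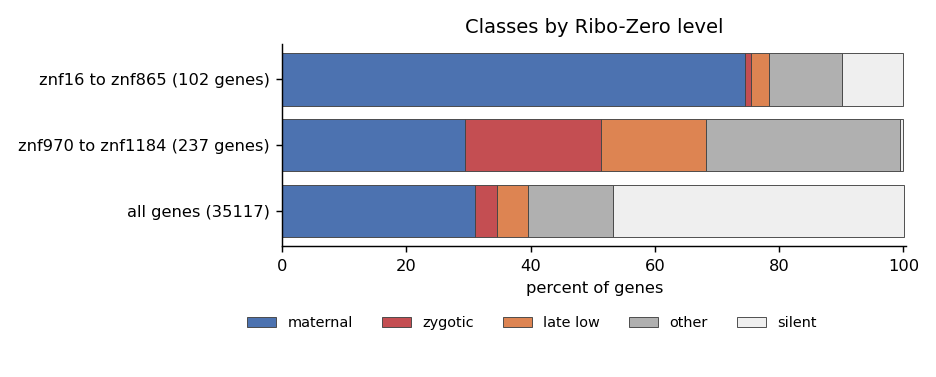
Share of genes in each class, set by Ribo-Zero level, in percent, for the 102 low-numbered znf genes, the 237 high-numbered znf genes and all 35117 genes. Maternal genes make up 74.5% of the low-numbered bar and 29.5% of the high-numbered bar, and zygotic genes 1.0% and 21.9%.

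The summed level of the 2 runs followed different courses. In Ribo-Zero libraries the low-numbered genes together made up 3539, 3150, 1831 and 2229 TPM at 0, 3, 6 and 8 hpf. The high-numbered genes made up 1385 and 1157 TPM at 0 and 3 hpf, then 2346, 3576 and 2134 TPM at 4, 5 and 8 hpf. The highest Ribo-Zero level came at 0 hpf for 56 of the 102 low-numbered genes and at 8 hpf for another 26. Among the 237 high-numbered genes it came at 5, 6 and 7 hpf for 47, 82 and 49 genes and at 0 hpf for 21. In poly(A) libraries the sum of the high-numbered genes was 183, 887, 3166 and 5962 TPM at 1, 3, 4 and 5 hpf. In alpha-amanitin it was 590, 1221, 720 and 163 TPM at 2, 3.5, 5 and 7.5 hpf, so the sum in alpha-amanitin lay below the wild-type poly(A) sum at every shared hour from 4 hpf on.

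**Figure D2:**
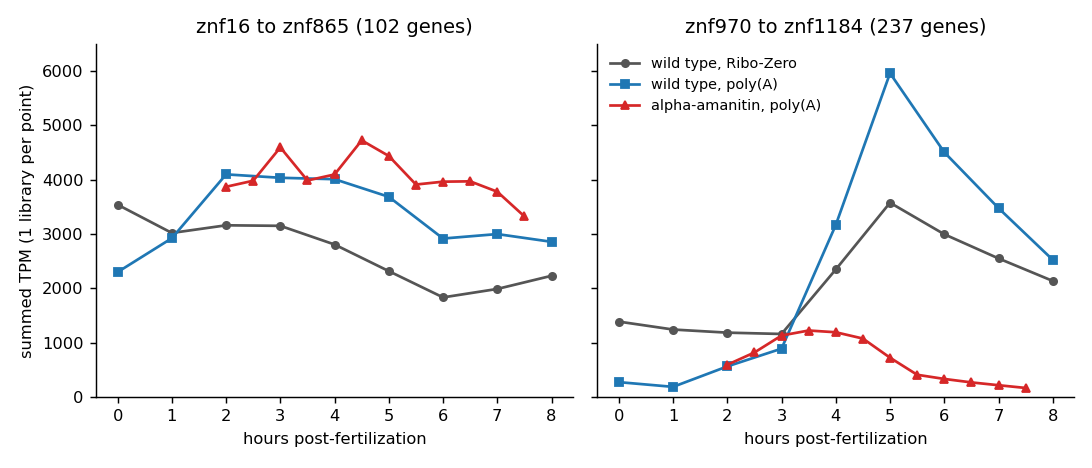
Summed TPM of the low-numbered (left) and high-numbered (right) znf genes by hour post-fertilization, 1 library per point, in wild-type Ribo-Zero, wild-type poly(A) and alpha-amanitin poly(A) libraries. The high-numbered genes reach 5962 TPM at 5 hpf in wild-type poly(A) and stay at or under 1221 TPM in alpha-amanitin.

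The 5 members with the highest maternal level were low-numbered. At 0 hpf in Ribo-Zero they were znf395a (215.33 TPM), znf281b (146.02, a transcription factor tied to pluripotency in mouse stem cells), znf143b (140.24), znf330 (135.51, a nucleolar protein in human cells) and znf706 (133.32). Their later courses differed. In Ribo-Zero znf281b was at 128.69, 140.99 and 106.24 TPM at 2, 6 and 8 hpf, whereas znf143b was at 124.95, 18.13 and 21.96 TPM at the same hours. The high-numbered gene with the highest maternal level was znf1035, at 128.47 TPM at 0 hpf and 52.02 at 6 hpf, followed by znf1003 at 84.06 and 42.87.

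The course of maternal mRNA without new transcription was read from the alpha-amanitin libraries as the slope of ln(TPM + 0.1) per hour. The fit used limma with Benjamini-Hochberg adjustment over the 13977 genes whose mean reached 1 TPM. All were poly(A) libraries, so lost RNA and a lost tail or capture cannot be told apart in a falling slope. These libraries took no part in choosing the maternal members. Of the 146 maternal members 143 were tested, 99 had a slope below 0 at an adjusted p under 0.05 and 11 a slope above 0, with a median of -0.265 per hour. Over all genes tested 37.5% were called below 0 and 23.7% above 0, with a median of -0.034; of 10785 maternal genes tested 4194 and 2926 were called, with a median of -0.027.

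The 2 runs differed in this slope as well. Of the high-numbered maternal members 68 of 70 were tested, 59 fell and 0 rose in limma (61 and 0 at an unadjusted p under 0.05), with a median slope of -0.374 per hour (quartiles -0.443 and -0.261, highest -0.055). Of the low-numbered maternal members 75 of 76 were tested, 40 fell and 11 rose, with a median of -0.087 (quartiles -0.311 and 0.037). The size depends on the amount added before the log. With 1 TPM added the medians were -0.248 for the high-numbered and -0.085 for the low-numbered members, and the counts were unchanged. With each library scaled by the median ratio of maternal genes the high-numbered counts stayed at 59 and 0 and the low-numbered counts were 37 and 21. Over all maternal genes 35.8% were then called below 0 and 35.9% above. Without the 20 maternal rows that share a name, 43 high-numbered and 40 low-numbered members had a slope called below 0, an alternative chosen after seeing the data. The difference between the runs was not tested as such. The 10 other zinc finger families were picked by name (zbtb, klf, sp, prdm, zic, ikzf, sall, egr, gli and snai). Of their 121 genes 71 were tested, with a median slope of -0.135, 40 falling and 7 rising. These were genes of any class, and 47 of the 121 were maternal. Among high-numbered znf members of any class, 98 were tested, 81 fell and 0 rose, with a median of -0.363. Of 84 low-numbered ones tested 43 fell and 11 rose, with a median of -0.096. Single families differed. Falling and rising were 3 and 0 of 3 tested for snai (median -0.373) and 10 and 1 of 13 for klf (-0.187). For zbtb they were 20 and 1 of 33 (-0.148), for prdm 4 and 1 of 8, for sp 1 and 2 of 6 and for sall 0 and 2 of 3. For gli they were 0 and 0 of 3 (0.017), and for zic (-0.303) and ikzf (-0.225) 1 and 0 of 1 each. No egr gene was tested.

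**Figure D3:**
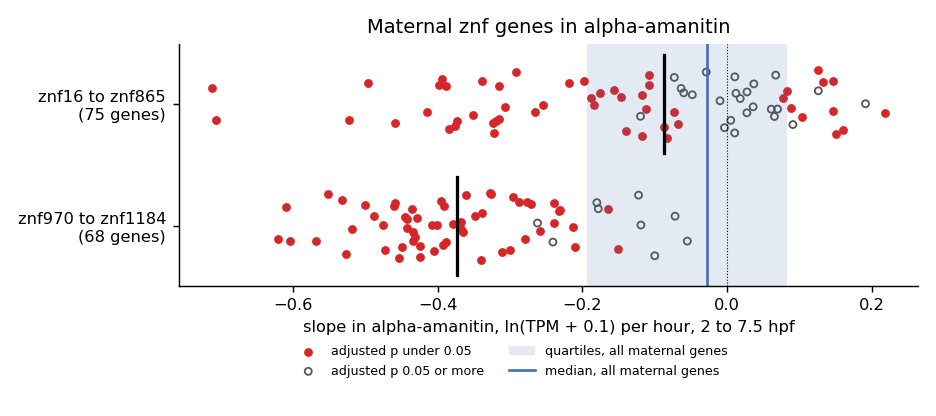
Slope of ln(TPM + 0.1) per hour in alpha-amanitin from 2 to 7.5 hpf for the 75 low-numbered and 68 high-numbered maternal znf genes tested (points, spread vertically for display), filled where the limma adjusted p is under 0.05; black bars are medians, the blue line and band the median and quartiles of all maternal genes. The median is -0.087 for the low-numbered, -0.374 for the high-numbered and -0.027 for all maternal genes.

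A line describes this course only in part. The median level of the 70 high-numbered maternal members in alpha-amanitin was 3.09, 7.21, 7.67, 4.52, 1.78 and 1.20 TPM at 2, 3, 4, 5, 6 and 7.5 hpf. In poly(A) libraries the level was thus higher at 4 hpf than at 2 hpf, and lower at 7.5 hpf than at either. Over 2 to 4.5 hpf alone the median slope was 0.266 per hour, with 0 of the 70 called below 0 (limma) and 10 above; over 5 to 7.5 hpf it was -0.551, with 37 of 55 tested called below 0 and 0 above. In the early window 1 of 75 low-numbered maternal members was called below 0 and 11 above, and in the late window 39 of 74 and 0. Over all maternal genes tested, 4.3% were called below 0 and 11.5% above in the early window, with a median of 0.076. The early shares above 0 were 14.3% for the high-numbered and 14.7% for the low-numbered members, near that of all maternal genes. In the late window 25.3% of all maternal genes were called below 0 and 0.3% above, with a median of -0.063.

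The 5 steepest falls among maternal members with a mean of at least 5 TPM in these libraries were those of znf654, znf143b, znf970, znf1009 (ENSDARG00000092241) and znf770. In the 12 alpha-amanitin libraries znf143b, whose human counterpart ZNF143 activates promoters of small nuclear RNA and many protein-coding genes, ranged from 1.26 to 50.60 TPM: at 2, 3.5, 5 and 7.5 hpf it was at 28.96, 50.60, 14.00 and 1.51 TPM. Its slope was -0.706 ± 0.078 per hour (SE, adjusted p = 5.22e-06, limma). Its paralogue znf143a was at 19.87, 43.38 and 32.25 TPM at 2, 4 and 7.5 hpf, with a slope of 0.070 ± 0.034 (adjusted p = 0.091, limma), so the pair lay apart at the end of the course although both were maternal.

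The high-numbered znf970 was at 44.91, 41.68, 6.78 and 1.89 TPM at 2, 4, 6 and 7.5 hpf, and fell with a slope of -0.621 ± 0.060 (adjusted p = 1.68e-06, limma). For znf654 the level was 14.58 TPM at 3 hpf and 0.42 at 7.5 hpf (slope -0.711 ± 0.085, adjusted p = 9.86e-06, limma). Both were under 2 TPM in the last library. Over 2 to 4.5 hpf alone the slopes of znf1009 (ENSDARG00000092241) and znf770 were above 0, at 0.200 and 0.161.

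The 5 steepest rises were those of znf574, znf318, znf367, znf865 and znf207a, all low-numbered. znf207a, whose human counterpart BUGZ takes part in spindle assembly and the loading of Bub3, was at 267.71, 171.87, 384.73 and 446.23 TPM at 2, 3.5, 6 and 7.5 hpf, a slope of 0.146 ± 0.031 per hour (adjusted p = 9.43e-04, limma). znf318 was at 32.48 TPM at 2 hpf and 90.39 at 7.5 hpf (slope 0.160 ± 0.031, adjusted p = 4.88e-04, limma). With new transcription blocked, such a rise in TPM is a rise in the share of the poly(A) RNA. Over 5 to 7.5 hpf alone the slope of znf865 was -0.019.

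In wild-type embryos the level of a maternal gene also depends on what the zygote adds. From 2 to 6 hpf in Ribo-Zero, 14 of the 70 high-numbered maternal members were lower by at least 1 on the log2(TPM + 0.1) scale and 27 were higher by at least 1, with a median of 0.82 given without a test. Of the 76 low-numbered maternal members 43 were lower and 1 was higher, with a median of -1.28. Among all 10874 maternal genes 58.7% were lower and 5.06% higher, with a median of -1.33, so the low-numbered genes lay near the whole and the high-numbered genes above it. The high-numbered count depends on the scaling and on the maternal limit. With scaling by maternal genes 48 of the 70 were higher. That scaling sets the typical maternal change near flat by construction, so a higher count under it was fixed in advance. The share of all maternal genes under it is not given here. Without that scaling, of the 33 with a maternal level of at least 10 TPM 4 were higher and 11 lower, with a median of -0.57. In poly(A) libraries over the same hours 45 of the 70 high-numbered members were higher and 5 lower. Of the 76 low-numbered members 10 were higher and 39 lower, and of all maternal genes 15.3% and 48.3%.

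**Figure D4:**
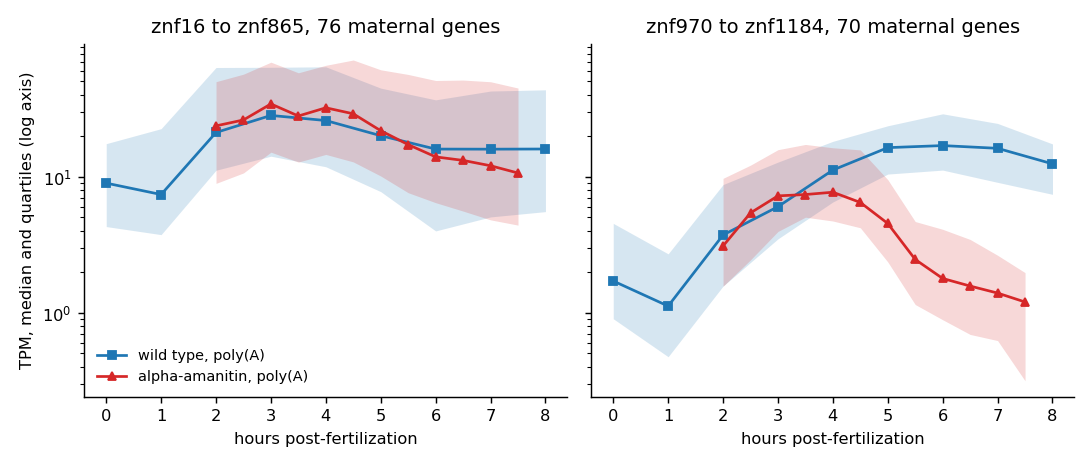
TPM of maternal znf genes by hour post-fertilization in wild-type and alpha-amanitin poly(A) libraries, as medians (lines) and quartiles (bands) over genes on a log axis, for 76 low-numbered (left) and 70 high-numbered (right) genes. The high-numbered medians lie at 16.9 TPM in wild type and 1.78 TPM in alpha-amanitin at 6 hpf, and the low-numbered medians at 15.9 and 13.9 TPM.

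The matched poly(A) libraries at 4, 5, 6 and 7 hpf gave the same genes with and without alpha-amanitin (limma on log2(TPM + 0.1) with hours as a number, 16028 genes tested). These comparisons share the alpha-amanitin libraries with the slopes above. All 70 high-numbered maternal members were tested, 46 were lower in alpha-amanitin and 0 higher (50 and 0 at an unadjusted p under 0.05, limma), with a median difference of -2.08. Of 76 low-numbered maternal members 9 were lower and 20 higher, with a median of 0.38. Over all genes 21.8% were lower and 23.8% higher, with a median of 0.40, and over the 10822 maternal genes tested the counts were 1039 and 3360 and the median 0.64. For 4 high-numbered and 1 low-numbered maternal member (znf281a) the mean alpha-amanitin level was under 1 TPM, so these passed the filter only through wild type. Without a filter 43 high-numbered members were lower and 0 higher, and 8 low-numbered members were lower and 14 higher. The shares of all maternal genes were then 8.0% and 24.2%.

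Scaling by maternal genes moved the median of all genes by -0.63 on the log2 scale. Under it 52 high-numbered maternal members were lower and 0 higher, and the low-numbered split turned to 16 lower and 9 higher. The split over all maternal genes turned as well, to 16.4% lower and 13.6% higher, and over all genes the shares were 27.3% and 10.1%. With hours as a factor, which pairs the libraries of each hour, 21 high-numbered members were lower and 0 higher. Of the low-numbered members 2 were lower and 6 higher, and of all maternal genes 3.5% and 5.6%. The counts also rested on the hours used. Without 5, 6 or 7 hpf the high-numbered members called lower numbered 15, 7 and 10, with median differences of -2.16, -1.79 and -1.46. The low-numbered members called higher numbered 4, 0 and 2. Over all maternal genes the shares were then 2.5%, 1.6% and 2.4% lower and 3.4%, 0.8% and 2.5% higher. Without any fit, all 4 wild-type libraries lay above all 4 alpha-amanitin libraries for 35 of the 70 high-numbered and 6 of the 76 low-numbered maternal members, against 11.1% of all genes and 5.4% of all maternal genes. The reverse held for 0 and 9 members, against 6.34% of all genes and 15.9% of all maternal genes.

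The slopes from 2 to 7 hpf were also compared between treatments, a test that shares the libraries at 4 to 7 hpf of both arms with the differences above. The wild-type slope was higher than the alpha-amanitin slope for 52 of the 70 high-numbered maternal members and lower for 0 (limma interaction term; 56 and 0 at an unadjusted p under 0.05), with a median difference of 0.78 on the log2 scale per hour. For the 76 low-numbered maternal members the counts were 12 higher and 20 lower, and the median was -0.12. Over all 15782 genes tested 23.1% were higher in wild type and 29.4% lower, with a median of -0.13, and over the 10835 maternal genes tested 13.2% were higher and 36.9% lower, with a median of -0.22. Under the scaling by maternal genes the low-numbered split turned to 24 higher and 12 lower, and the high-numbered counts were 64 and 0. The shares over all genes turned as well, to 34.3% higher and 18.7% lower, and over all maternal genes they were 25.9% and 23.6%. Without 7 hpf 32 high-numbered members were called higher.

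Among the low-numbered maternal members lower in alpha-amanitin were znf281a (-4.93 ± 0.73, adjusted p = 0.0016), znf654 (-3.35 ± 0.72, adjusted p = 0.0093) and znf143b (-2.07 ± 0.64, adjusted p = 0.031), as log2 differences with their SE from limma. znf281a stood at 0.74, 0.64, 0.50 and 0.39 TPM at 4, 5, 6 and 7 hpf in alpha-amanitin and at 3.21, 24.62, 43.84 and 44.08 TPM in wild type. It passed the filter only through the wild-type libraries, so its result is a description. Its paralogue znf281b stood at 156.47, 219.23, 221.64 and 213.07 TPM against 184.33, 220.85, 161.60 and 134.55 TPM, groups that overlapped. The activator znf410, whose human counterpart switches on the chromatin remodeller gene CHD4, was also lower (-1.33 ± 0.44, adjusted p = 0.038, limma). Most such calls did not hold in other fits. Of the 76 low-numbered maternal members 1 was called lower without 6 hpf and 2 with hours as a factor, against 1.6% and 3.5% of all maternal genes.

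The 5 maternal members with the largest excess in alpha-amanitin were znf296, znf395b, znf652, znf385c and znf106b. At 4, 5, 6 and 7 hpf znf296 stood at 17.33, 21.14, 18.30 and 20.77 TPM in alpha-amanitin and at 9.86, 2.88, 0.41 and 0.26 TPM in wild type, with no overlap (difference 3.67 ± 0.75, adjusted p = 0.0077, limma). For znf395b the levels were 35.58, 37.19, 39.30 and 40.70 against 16.45, 8.06, 2.79 and 0.95 TPM (3.09 ± 0.59, adjusted p = 0.0057, limma). In both genes the wild-type level was lower at each later hour, while the level in alpha-amanitin stayed within a narrow range. znf706 (1.67 ± 0.33, adjusted p = 0.0066, limma) and znf598 (1.45 ± 0.44, adjusted p = 0.029, limma), whose human counterpart is the ubiquitin ligase that marks collided ribosomes, were also higher in alpha-amanitin. Without 6 hpf 0 of the 76 low-numbered maternal members were called higher, against 0.8% of all maternal genes. The calls of maternal members named in this paragraph thus did not hold there. With hours as a factor 6 of the 76 stayed called higher, against 5.6% of all maternal genes.

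Members with other known roles were spread over both directions. znf622, a factor of large ribosomal subunit maturation, was higher in alpha-amanitin (means of 123 and 64.9 TPM over 4 to 7 hpf, 1.25 ± 0.44, adjusted p = 0.047, limma), as was znf423, a cofactor of BMP signalling in mammals (12.6 and 4.44 TPM, 2.03 ± 0.55, adjusted p = 0.021, limma). znf593, also of large subunit maturation, gave 53.2 and 82.4 TPM (-0.68 ± 0.33, adjusted p = 0.11, limma), and znf346, which binds double-stranded RNA in mammals, gave 248 and 201 TPM (0.28 ± 0.22, adjusted p = 0.28, limma). Neither of these differences passed the test. For znf326, a factor linking transcript elongation and splicing in human cells, the wild-type poly(A) level was 109.06 TPM at 4 hpf and 0.82 at 8 hpf, while alpha-amanitin embryos held 32.51 TPM at 7.5 hpf. The differences at 4 to 7 hpf of znf326 (1.34 ± 0.63, adjusted p = 0.10), znf711 (-0.56 ± 0.48, adjusted p = 0.33), znf384l (0.61 ± 0.36, adjusted p = 0.18) and znf148 (-0.35 ± 0.49, adjusted p = 0.56) did not pass limma's test.

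The hindbrain patterning genes znf703 and znf503, zebrafish members of the NET family, were higher late in wild type. In wild-type poly(A) znf703 stood at 4.87, 25.54, 51.95 and 97.26 TPM from 5 to 8 hpf, and in alpha-amanitin at 2.61 TPM at 4.5 hpf and 0.77 at 7.5 hpf. It rose by 1.39 per hour on the log2 scale from 5 to 8 hpf (adjusted p = 0.011, limma) and was lower in alpha-amanitin (-2.53 ± 0.80, adjusted p = 0.033, limma). For znf503 the wild-type levels were 12.71, 17.56, 29.92 and 52.72 TPM (slope 0.69, adjusted p = 0.017, limma). znf207b rose too (0.47, adjusted p = 0.024, limma).

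The gain of poly(A) signal over total RNA was taken as the change from 0 to 3 hpf in log2 of the poly(A) over the Ribo-Zero level, each with 0.1 TPM added. Before the zygotic genome is active, maternal mRNAs in fish gain longer tails in the cytoplasm, and capture on oligo-dT favours these. Of 146 maternal members 132 gained at least 1 and 2 lost at least 1, with a median of 1.95, and the 2 runs gave similar counts, with 66 of 76 and a median of 1.94 for the low-numbered and 66 of 70 and 1.97 for the high-numbered genes. Among all maternal genes 63.0% gained at least 1, with a median of 1.55. The Ribo-Zero level at 0 hpf entered both the class and this ratio. In poly(A) libraries alone, 122 of the 146 were higher at 3 than at 0 hpf by at least 1, with a median of 1.69. The share over all maternal genes was 58.8%, with a median of 1.36.

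As a slope over 0, 1, 2 and 3 hpf, the ratio rose for 81 of 140 maternal members tested and fell for 1 (limma), with a median of 0.75 per hour on the log2 scale, and the high-numbered genes had 36 rising of 64 tested and 0 falling (46 and 0 at an unadjusted p under 0.05). Over all 12917 genes tested 47.2% rose and 3.12% fell, with a median of 0.58. Over the 10788 maternal genes tested the shares were 46.0% and 3.2%, with a median of 0.57. The Ribo-Zero levels at 0 and 1 hpf entered both the maternal class and this slope, so the 2 are not independent. Most of this rise was shared by all genes, by these medians. Scaling by maternal genes sets the typical maternal ratio near flat by construction, so fewer calls under it were fixed in advance. The scaling moved the median of all genes by -0.59, to -0.01, after which 1 maternal member rose and 4 fell, and the member median was 0.16. Under it 25 of 146 gained at least 1 from 0 to 3 hpf. Without 2 hpf 32 and without 3 hpf 21 members had a rising ratio. Shares over all genes under these alternatives are not given here, so these counts are not set against the whole.

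The 5 largest gains were those of znf740a (ENSDARG00000104858), znf1157 (ENSDARG00000095617), znf1119, znf704 and znf653. In poly(A) libraries znf653 was at 8.90, 11.40, 65.21 and 93.15 TPM from 0 to 3 hpf, while in Ribo-Zero it was at 60.44, 58.18, 55.98 and 55.12 TPM, a gain of 3.51 and a ratio slope of 1.31 per hour (adjusted p = 1.13e-04, limma). The total level was nearly flat while the captured level was higher at each later hour. znf740a was at 0.00 TPM in poly(A) at 0 hpf and at 3.72 at 3 hpf, so its gain of 5.08 depends on the 0.1 added.

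The 5 smallest gains were those of znf451, znf281a, znf207a, znf706 and znf16l, all low-numbered. znf451, a SUMO ligase in human cells, was at 164.61, 121.07, 51.23 and 32.66 TPM in poly(A) and at 64.74, 55.33, 60.34 and 54.93 in Ribo-Zero from 0 to 3 hpf, a change of -2.09, and its ratio fell by 0.76 per hour on the log2 scale (adjusted p = 0.0038, limma). znf207a (520.40 TPM in poly(A) at 0 hpf and 264.38 at 3 hpf) and znf706 (660.25 and 307.40) had changes of -0.91 and -0.85, and neither slope passed the test (adjusted p = 0.21 and 0.26, limma). These 3 genes had a higher poly(A) than Ribo-Zero level already at 0 hpf.

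The 53 zygotic members were 52 high-numbered genes and znf750, whose human counterpart drives epidermal differentiation. Their levels at 0 to 2 and 6 to 8 hpf in Ribo-Zero chose them, so their rise is a description. The poly(A) libraries came from the same stages of wild-type embryos, and the sources used here do not say whether from the same RNA. At 3 hpf 2 of the 53 reached 1 TPM in poly(A), znf1148 at 1.60 and znf1028 (ENSDARG00000103947) at 1.29, and at 4 hpf 52 did. The exception was znf750, at 0.00, 0.41 and 28.53 TPM at 4, 5 and 6 hpf.

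The median poly(A) level of the 52 high-numbered zygotic members was 0.17, 7.12, 25.1, 21.0, 14.2 and 10.7 TPM from 3 to 8 hpf. In poly(A) the highest hour of the 53 was 4, 5, 6, 7 and 8 hpf for 3, 25, 19, 5 and 1 of them. The 5 with the highest Ribo-Zero level at 6 to 8 hpf were znf1063, znf1043, znf1109, znf1065 and znf1062. From 3 to 8 hpf in poly(A) znf1043 was at 0.11, 119.19, 294.91, 125.78, 51.99 and 30.71 TPM, and znf1063 at 0.00, 36.25, 154.95, 123.76, 72.49 and 29.39 TPM. Both were highest at 5 hpf, as was znf1065 at 120.82 TPM, whereas znf1109 was highest at 4 hpf at 93.71 TPM.

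**Figure D5:**
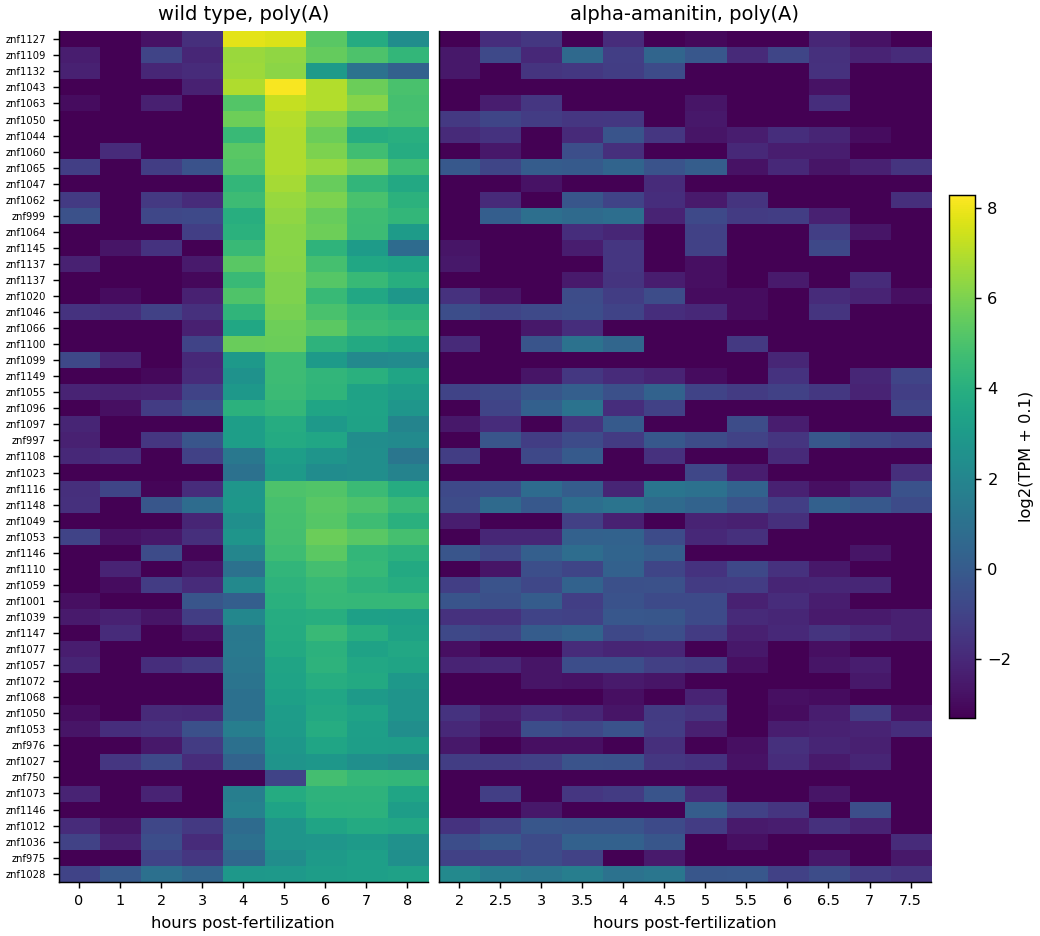
Level of the 53 zygotic znf genes, as log2(TPM + 0.1) by colour, in 9 wild-type (left) and 12 alpha-amanitin (right) poly(A) libraries by hour post-fertilization, ordered by the hour of the highest wild-type level. In wild type 52 genes reach 1 TPM at 4 hpf, and in alpha-amanitin no gene exceeds 4.37 TPM in any library.

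In alpha-amanitin these members stayed near 0. At 4 to 7 hpf the highest level of any zygotic member in any of the 4 libraries was 2.10 TPM, and over all 12 libraries it was 4.37 TPM. The median over members of the mean level was 0.143 TPM, against 16.9 TPM in wild type (lowest 4.95, highest 148). All 53 were called lower in alpha-amanitin (limma), as were 1080 of 1190 zygotic genes tested, with a median difference of -6.03 for the members and -5.35 for all zygotic genes. The size depends on the amount added before the log: the member median was -3.60 with 1 TPM and -7.82 with 0.01 TPM added. A total of 52 of the 53 had a mean under 1 TPM in alpha-amanitin, so they passed the filter only through the wild-type poly(A) libraries. The count is thus a description, and the fit without a filter also called 53. For 5 members, znf750 and znf1047 (ENSDARG00000100750) among them, the 4 alpha-amanitin libraries were listed at 0.

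The 5 with the largest difference were znf1043, znf1063, znf1127 (ENSDARG00000091502), znf1050 (ENSDARG00000096210) and znf1047 (ENSDARG00000100750). At 4, 5, 6 and 7 hpf znf1043 stood at 119.19, 294.91, 125.78 and 51.99 TPM in wild type and was listed at 0 in all 4 alpha-amanitin libraries, and its highest value in the 12 was 0.05 TPM. znf1127 (ENSDARG00000091502) stood at 229.86, 206.01, 40.26 and 13.94 TPM against 0.18, 0.02, 0.00 and 0.05 TPM. The groups lay far apart in both genes.

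Some of the members highest at 4 hpf were at low levels again by 8 hpf. Among members under 1 TPM at 0 to 2 hpf, the highest Ribo-Zero levels at 4 hpf were those of znf1127 (ENSDARG00000091502, 153.84 TPM), znf1132 (ENSDARG00000106807, 88.63), znf1043 (58.43), znf1126 (52.14) and znf1100 (48.34). In poly(A) from 4 to 8 hpf znf1132 was at 96.29, 77.52, 7.86, 1.97 and 1.11 TPM, so 1.15% of its highest level was left. znf1126 was at 73.96, 74.26, 10.33, 1.99 and 0.60 TPM, with 0.81% left, and was classed as late low for its mean at 6 to 8 hpf. znf1127 had 2.21% left, znf1043 10.41% and znf1100 20.47%.

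The same measure was taken over all high-numbered zygotic members. At 8 hpf 3 of 52 held under 10% of their highest poly(A) level and 17 held 50% or more, with a median of 38.4%. The class limit at 6 to 8 hpf leaves out genes low at these hours, such as znf1126. Of 29 high-numbered late low members with a highest level of at least 5 TPM, 4 held under 10% and 14 held 50% or more. Their median was 30.6%. Among 1150 zygotic genes outside the znf names, with a highest level of at least 5 TPM, 6.09% held under 10% and 79.0% held 50% or more, with a median of 86.0%. The zygotic members thus lay near these genes in the share under 10% and below them in the share at 50% or more. From 5 to 8 hpf the poly(A) level fell for 22 of the 53 zygotic members and rose for 0 (limma; 28 and 1 at an unadjusted p under 0.05), with a median slope of -0.40 per hour on the log2 scale. Over all 16142 genes tested 17.9% fell and 8.93% rose, with a median of -0.14, and of 1236 zygotic genes tested 108 fell and 392 rose, with a median of 0.44. The class used Ribo-Zero levels at 6 to 8 hpf, so these hours are not wholly independent of it.

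Among the zygotic and late low members named here the steepest fall was that of znf1126 (-2.25 per hour on the log2 scale, adjusted p = 0.0092, limma), followed by znf1132 (ENSDARG00000106807, -2.00, adjusted p = 0.011) and znf1127 (ENSDARG00000091502, -1.75, adjusted p = 0.0092). znf1043 fell by 1.11 and znf1063 by 0.80 per hour (adjusted p = 0.0092 and 0.014, limma). Scaling by maternal genes moved the median of all genes by 0.26, to 0.12, after which 12 of the 53 fell and 0 rose, with a median of -0.13. In Ribo-Zero libraries from 5 to 8 hpf 21 fell, with a median of -0.18. Over 4 to 8 hpf in poly(A) 8 fell and 2 rose, and the median turned to 0.11. Shares over all genes under these alternatives are not given here, so the counts show only how the member counts moved.

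The mean alpha-amanitin level at 4 to 7 hpf was under 1 TPM for all 40 late low and 46 of 74 other high-numbered members, so these could pass the filter only through the wild-type libraries, and the counts that follow are a description. In the poly(A) comparison at 4 to 7 hpf 36 of 37 late low and 61 of 72 other high-numbered members tested were lower in alpha-amanitin and 0 were higher (limma; 37 and 67 lower and 0 higher at an unadjusted p under 0.05), with medians of -4.03 and -3.59. Of all 237 high-numbered genes 231 were tested, 195 were lower and 0 higher, and for 170 all 4 wild-type libraries lay above all 4 alpha-amanitin libraries, against 21.8% called lower and 11.1% lying apart over all genes. These 237 include 142 with a mean alpha-amanitin level under 1 TPM, 51 zygotic, 40 late low and 46 other genes among them. Their count too is thus a description. With hours as a factor 143 were lower and 0 higher, against 13.1% and 3.9% over all genes. Of 102 low-numbered genes 87 were tested, 15 were lower and 22 higher. The 10 other zinc finger families had 26 lower and 20 higher of 87 tested, with a median of 0.36. Of these, zbtb genes had 4 lower and 15 higher of 34, and klf genes 6 and 2 of 15. For sall, snai, zic and sp genes 4 of 5, 3 of 4, 3 of 5 and 3 of 9 tested were lower and 0 higher. For prdm, gli and ikzf genes 3, 0 and 0 were lower and 2, 0 and 1 higher, of 11, 3 and 1 tested. No egr gene passed the filter.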

How the data were processed

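The authors aligned reads with STAR 2.7.3a to danRer11 and estimated transcripts with RSEM, and deposited TPM values with 2 decimals for 30 libraries, per the labels and the study's methods. TPM keeps no read count, so no count model was used. No column of per-sample values was left unmapped. Members were the rows named znf followed by a digit; the members, classes and lists were chosen with earlier results of these data known. Slopes and differences were fitted with limma 3.58.1 (R 4.3.3, trended empirical Bayes, two-sided, Benjamini-Hochberg over all genes tested, threshold 0.05) on ln or log2 of TPM + 0.1, over genes whose mean over the libraries of the fit reached 1 TPM. The scripts were tested on simulated data. Tables were made with Python 3.11.15, numpy 2.4.6 and pandas 2.3.3.

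Genes were named by rule: the 5 highest maternal and zygotic members, the 5 at each end of the slope, the poly(A) gain and the alpha-amanitin difference, the 5 highest at 4 hpf, and members of known role. znf1035, znf1003, znf1028, znf1148 and the other genes outside the rule were chosen after their values were seen. Alternatives were other pseudocounts (1, 0.01), no filter or one at 5 TPM, other class limits, scaling by the median ratio of maternal genes, other hours, and each library or hour left out. By name or synonym 176 of 339 members (51.9%) matched a RefSeq gene table of another assembly, under the 80% needed, so position was not analysed; sequences of the members were not used here.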

Additional observations from a re-analysis of the deposited data

Results flagged for a closer look

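Slopes from 2 to 7 hpf differed between wild-type and alpha-amanitin poly(A) libraries by the interaction term (limma). The wild-type slope was higher for 52 of 70 high-numbered maternal members and for 12 of 76 low-numbered ones, and lower for 20 low-numbered ones, against 23.1% higher and 29.4% lower over all genes. With scaling by maternal genes the low-numbered split turned to 24 higher and 12 lower, and the high-numbered counts were 64 and 0. Under this scaling the shares turned over all genes as well, to 34.3% higher and 18.7% lower. Over all maternal genes they were 25.9% and 23.6%. With 1 library per condition no group could be searched for a sample far from the others.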

How the results depend on the processing

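Over all results counted here, 152 of 194 alternative counts lay within 1.5 times the reported one. Splits by name number, the fits without members that share a name and the fit of 5 to 8 hpf without a filter were chosen after seeing the data. With hours 2 to 4.5 the maternal members with a slope below 0 in alpha-amanitin numbered 1 (0 high-numbered, 1 low-numbered) and those above 0 numbered 21; with hours 5 to 7.5 those above 0 numbered 0 and the high-numbered ones below 0 37. A filter at 5 TPM left 28 high-numbered members below 0 of 31 tested, and a maternal limit of 10 TPM left 30. Scaling by maternal genes gave 21 maternal members with a slope above 0, 9 higher in alpha-amanitin (all low-numbered), 12 with a steeper fall in wild type, 1 with a rising poly(A) ratio, 25 with a gain of at least 1, 22 down by at least 1 in Ribo-Zero from 2 to 6 hpf, 48 high-numbered ones up by at least 1, and 12 zygotic members falling from 5 to 8 hpf. Hours as a factor gave 6 maternal members higher in alpha-amanitin and 23 lower (21 of them high-numbered). A zygotic limit of 1 TPM gave 89 lower in alpha-amanitin, 4 to 8 hpf gave 8 zygotic members falling, poly(A) libraries gave 45 and a limit of 10 TPM gave 4 of 33 high-numbered maternal members up by at least 1. The cause of these moves was not tested, beyond fewer members or libraries where a limit or hour was taken away. Scaling by maternal genes holds the typical maternal gene level by construction. The fewer poly(A) gains under it were thus fixed in advance. The same holds for the fewer falls and more rises in Ribo-Zero from 2 to 6 hpf.

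Leaving out 1 library or hour at a time, the counts ranged from 80 to 111 for slopes below 0 in alpha-amanitin (48 to 67 high-numbered, 32 to 44 low-numbered) and from 11 to 16 for those above 0. They ranged from 47 to 53 for zygotic members lower in alpha-amanitin, from 8 to 70 for maternal ones lower (7 to 55 high-numbered), from 0 to 27 for maternal ones higher, all of them low-numbered, from 10 to 22 for a steeper fall in wild type and from 32 to 59 for the high-numbered ones with a higher wild-type slope. They ranged from 21 to 96 for a rising poly(A) ratio and from 17 to 20 for zygotic members falling from 5 to 8 hpf. The low ends came without 6 hpf (alpha-amanitin difference and steeper fall), 7 hpf (wild-type slope) and 3 hpf (poly(A) ratio).

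Of 806 alternative values for named genes 671 kept direction and call, 120 lost the call and 15 turned sign. With hours 2 to 4.5 the slope in alpha-amanitin turned to 0.200 for znf1009 (ENSDARG00000092241), 0.261 for znf1119, 0.192 for znf1157 (ENSDARG00000095617), 0.004 for znf16l, 0.127 for znf330, -0.002 for znf346, 0.261 for znf503, 0.237 for znf593, 0.047 for znf653, 0.073 for znf703, 0.159 for znf711 and 0.161 for znf770, and with hours 5 to 7.5 to -0.048 for znf281b, -0.019 for znf652 and -0.019 for znf865. The fit without members that have a near-identical protein copy was not run, since protein sequences were not used here. No paired analysis by replicate number was possible because each condition has 1 library; libraries were paired by hour in the fit with hours as a factor. Unknown depth limits what a TPM listed at 0 can show.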
